A study of Mus musculus with 2 samples.

Results

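The cells described here were the cycling barcodes, of any lineage, in 2 single-cell RNA libraries from mouse liver. A barcode was counted as cycling when its unique molecular identifiers (UMIs, each standing for 1 captured transcript) of 6 proliferation genes, Mki67, Top2a, Cenpf, Cenpe, Kif11 and Kif15, summed to 3 or more. Barcodes needed 1000 UMIs and 400 genes to enter, and those with over 30% mitochondrial UMIs were left out. By this rule 923 of 42372 barcodes were cycling, 290 of 20158 in WT and 633 of 22214 in N-LKO. The members were chosen by the measured UMIs of these 6 genes, so the levels of the genes are given as a description.

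The WT library came from the liver of control mice and the N-LKO library from liver plus tumor of mice in which albumin-Cre had deleted the loxP-flanked NgBR gene, Nus1, in hepatocytes. NgBR is a subunit of the cis-prenyltransferase that makes dolichol, the lipid carrier of protein glycosylation. Mice of both groups had eaten the diet for 16 weeks, which the treatment labels call WD and the titles HFD. Hepatocytes and nonparenchymal cells had been isolated by collagenase perfusion and mixed at set ratios, with tumor cells added in N-LKO, so the make-up of a library partly reflects the mixing. Albumin-Cre is used to act in hepatocytes, and the deletion was not checked here in any lineage. Each group had 1 library, genotype, tumor tissue and library differed together and cannot be told apart, no test across samples was possible, and all intervals are 95% intervals that cover counting error only.

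A cell that divides copies its DNA in S phase, supported by licensing factors, polymerases, nucleotide synthesis and new histones, and then separates the copies in mitosis with condensins, kinetochores, the spindle and the cytokinesis machinery. The genes of both steps are low in resting cells and are switched on late in G1 or in G2. In the adult liver most hepatocytes rest, while resident macrophages, endothelial cells and lymphocytes renew at low rates. Mki67 encodes the Ki-67 antigen that coats mitotic chromosomes, Top2a the topoisomerase that untangles them, Cenpf and Cenpe kinetochore proteins, and Kif11 and Kif15 the motors that push the spindle poles apart.

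The DNA before the start sites of these genes is shown because it carries the short motifs through which G2 and mitosis genes are commonly timed, the cell cycle genes homology region, with the core TTTGAA, and the CCAAT box of the factor NF-Y. Capitals mark each match on either strand in the 160 bases that end at the start site, taken from RefSeq for GRCm38.p6 and written 5′ to 3′ along the gene's strand. The Mki67 stretch is chr7:135716380-135716539 (minus strand), that of Top2a chr11:99024190-99024349 (minus), that of Cenpf chr1:189688087-189688246 (minus) and that of Kif11 chr19:37376222-37376381 (plus).
Mki67: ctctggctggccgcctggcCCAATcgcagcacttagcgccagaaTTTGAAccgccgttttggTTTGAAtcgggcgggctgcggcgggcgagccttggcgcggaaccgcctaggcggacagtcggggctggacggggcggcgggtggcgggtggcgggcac
Top2a: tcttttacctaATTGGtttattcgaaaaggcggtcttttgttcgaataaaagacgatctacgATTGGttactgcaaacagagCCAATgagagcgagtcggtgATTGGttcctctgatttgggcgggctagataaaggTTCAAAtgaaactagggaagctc
Cenpf: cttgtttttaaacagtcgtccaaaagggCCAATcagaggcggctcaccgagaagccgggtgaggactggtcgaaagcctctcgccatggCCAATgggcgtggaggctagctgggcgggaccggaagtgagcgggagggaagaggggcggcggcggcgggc
Kif11: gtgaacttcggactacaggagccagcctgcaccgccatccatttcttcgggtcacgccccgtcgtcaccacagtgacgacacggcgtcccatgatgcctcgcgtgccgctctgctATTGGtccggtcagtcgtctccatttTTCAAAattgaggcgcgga
Top2a carried 4 CCAAT boxes in this stretch and a TTTGAA core that began at position -23, counted back from the start site. Kif11 carried a core at -19 and a CCAAT box at -45, and Mki67 carried cores at -116 and -98. In the 250 bases before the start, 4 of the 6 genes held TTTGAA and 5 held CCAAT on either strand, and 3 held both. Among the 27025 genes with a promoter in the table, 18.3% held TTTGAA, 37.5% CCAAT and 6.45% both. Of 108 genes of the cell cycle lists described below with a promoter in the table, 28.7% held TTTGAA, 67.6% CCAAT and 24.1% both. A match is a run of letters and not evidence of binding.

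In the cycling barcodes Top2a was the most abundant of the 6 genes, at 1144 CPM (UMIs of a gene scaled to a total of 1000000; 639 UMIs) in WT and 862 CPM (1284 UMIs) in N-LKO. Mki67 followed at 747 and 631 CPM, Cenpf at 376 and 331, Kif11 at 310 and 211, Kif15 at 195 and 168 and Cenpe at 181 and 199. The 6 genes together stood at 2953 CPM in WT and 2402 in N-LKO, against 25.9 and 42.2 in the barcodes that were not cycling and 12.1 and 37.1 in barcodes under 500 UMIs, which hold mostly free RNA. Free RNA at these levels would give a barcode of median depth 0.0214 UMIs of the 6 genes in WT and 0.0799 in N-LKO, against the 3 required. The median cycling barcode held 5 UMIs of 3 different genes in both libraries, and the highest held 15 in WT and 22 in N-LKO. A minority rested on a lone gene, 15 barcodes in WT and 26 in N-LKO, whereas 92 and 200 carried 4 or more of the genes. Just inside the threshold, 62 WT and 166 N-LKO barcodes had exactly 3 UMIs, and just outside it 111 and 250 had exactly 2.

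**Figure D1:**
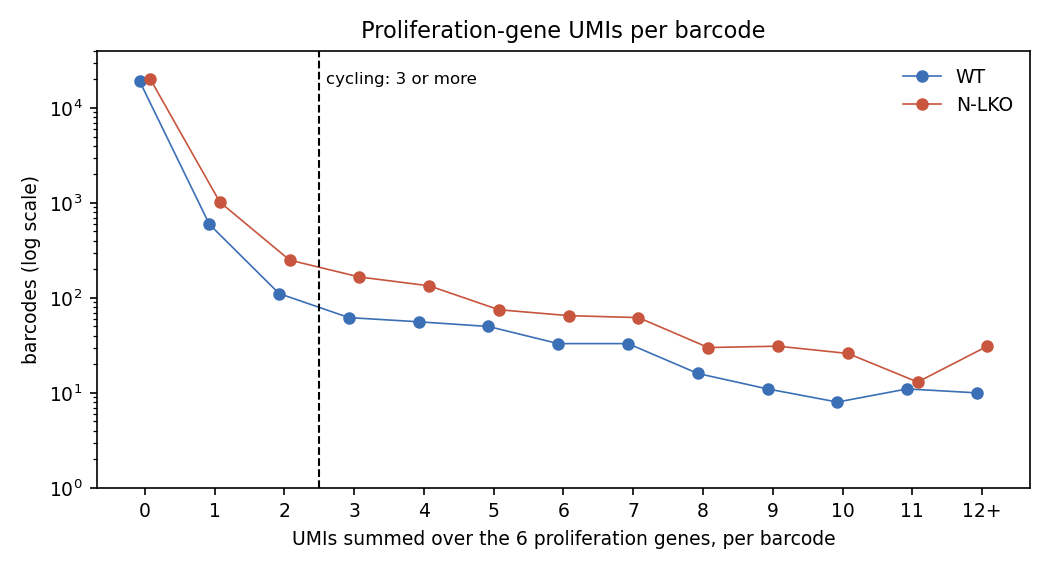
Number of barcodes (y axis, log scale) by the UMIs summed over the 6 proliferation genes (x axis), for WT and N-LKO, with the dashed line at the threshold for cycling. Counts run from 19162 WT and 20311 N-LKO barcodes at 0 UMIs to 10 and 31 at 12 or more, with no gap at the threshold between 2 and 3 UMIs.

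Cycling barcodes were deeper than the others, with median depths of 1761 UMIs in WT and 2155 in N-LKO against 1408 and 1453 in the barcodes that were not cycling. They held a median of 1110.5 and 1239 genes, against 787 and 843. Mitochondrial genes took a median of 8.46% and 12.04% of their UMIs, against 16.2% and 16.5%. A doublet score of 0.25 or more was given to 6.90% of cycling barcodes in WT and 9.64% in N-LKO, against 8.58% and 10.7% of the others. Shares after thinning to equal depth are given beside the main ones, and the part of the other differences was not tested. The libraries shared 2499 barcode sequences in all and 139 among the filtered barcodes, and none among the cycling ones.

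Cycling barcodes made up 1.44% (1.28 to 1.61) of the WT library and 2.85% (2.63 to 3.08) of the N-LKO library, a ratio of 1.98 (1.72 to 2.28). With every barcode thinned to 1000 UMIs the shares were 0.878% and 1.36%, and the ratio was 1.55 (1.28 to 1.87). With barcodes from 500 UMIs and 250 genes the shares were 0.459% and 1.65%, and the ratio was 3.59 (3.13 to 4.12). Hepatocyte-like barcodes, of which 7 of 10330 cycled in WT, were 51.2% of the filtered WT barcodes and 9.87% of the N-LKO barcodes. Outside the hepatocyte-like barcodes and a further unnamed cluster that came almost wholly from N-LKO, 282 of 9809 WT barcodes (2.87%) and 536 of 17029 N-LKO barcodes (3.15%) cycled. The difference there was 0.273 percentage points (-0.158 to 0.688), and -0.199 (-0.531 to 0.116) after thinning, so that counting error alone covered it in either case.

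Each cycling barcode took the lineage of the 20 barcodes that were not cycling and lay nearest to it in a clustering built without the cell cycle genes. Clusters were named from marker lists and are written X-like, and 1 WT and 8 N-LKO cycling barcodes had no majority lineage. In WT the leading lineages of the 290 cycling barcodes were T/NK-like (73 barcodes, 25.2%), Kupffer-like (57, 19.7%) and endothelial-like (40, 13.8%). In N-LKO the leading lineages of the 633 were Kupffer-like (125, 19.7%), conventional dendritic cell (DC)-like (78, 12.3%) and endothelial-like (60, 9.48%), followed by the unnamed cluster (57, 9.0%). The T/NK-like share of cycling barcodes was 18.9 percentage points lower in N-LKO (13.7 to 24.4 lower), the conventional DC-like share 5.77 points higher (1.60 to 9.40) and the hepatic stellate-like share 5.06 points lower (2.10 to 8.82 lower). The Kupffer-like shares differed by 0.0921 points (-5.66 to 5.39). With each barcode placed by its own markers relative to free RNA, the difference was -13.4 points for T/NK-like and 1.40 for conventional DC-like, below the interval above, and 8.60 for monocyte/macrophage-like in place of 0.758. These shares follow both how many barcodes of a lineage a library held and how many of them cycled. Own markers gave the same lineage to 61 of 73 T/NK-like cycling barcodes in WT and 35 of 40 in N-LKO. The counts were 46 of 57 and 83 of 125 for Kupffer-like and 11 of 19 and 42 of 78 for conventional DC-like ones. For monocyte/macrophage-like ones they were only 5 of 23 and 25 of 55, and for hepatocyte-like ones 2 of 7 and 25 of 40. In N-LKO 12 of 22 B cell-like and 4 of 14 plasmacytoid DC-like ones were placed alike.

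**Figure D2:**
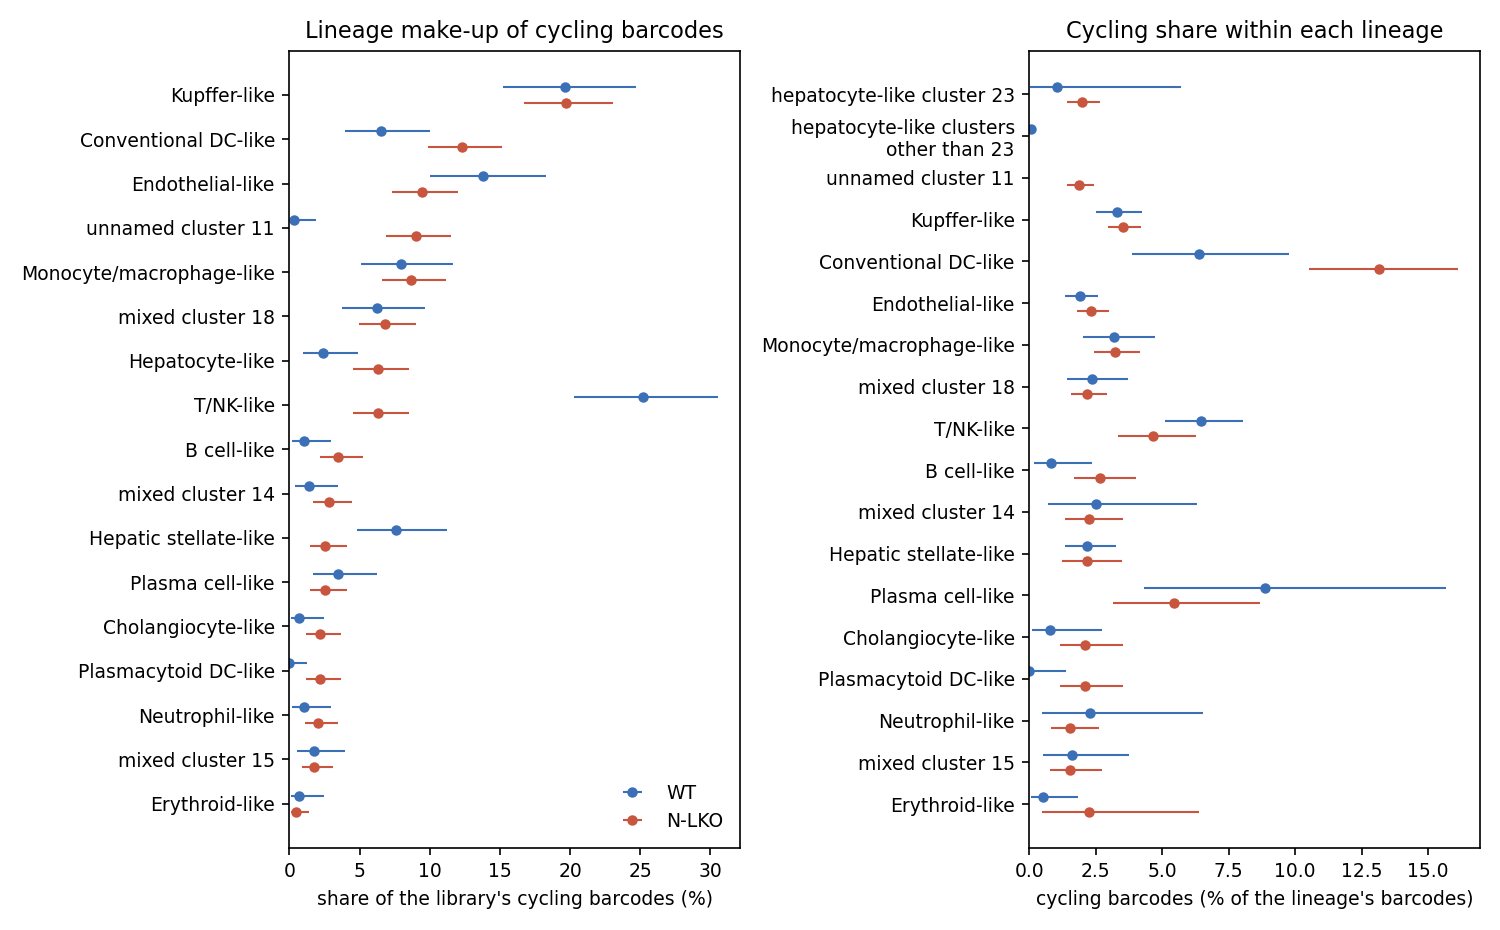
Left, share of each library's cycling barcodes that each lineage held (%); right, cycling barcodes as a share of the lineage's own barcodes (%), with hepatocyte-like barcodes split by cluster and, except for cluster 23, groups under 100 barcodes left out. Points are WT and N-LKO values and bars 95% exact intervals for counting error. T/NK-like barcodes led the WT make-up at 25.2%, and the conventional DC-like share of cycling was 6.38% in WT and 13.2% in N-LKO.

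Within lineages the cycling shares of the libraries mostly lay close together. Of Kupffer-like barcodes, 57 of 1733 cycled in WT (3.29%) and 125 of 3535 in N-LKO (3.54%), a difference of 0.247 points (-0.855 to 1.24). Monocyte/macrophage-like barcodes stood at 23 of 722 (3.19%) and 55 of 1708 (3.22%), and hepatic stellate-like barcodes at 22 of 1021 (2.15%) and 16 of 741 (2.16%). Endothelial-like barcodes stood at 40 of 2107 (1.90%) and 60 of 2574 (2.33%), a difference of 0.433 points (-0.418 to 1.26). T/NK-like barcodes had a share of 6.46% in WT (73 of 1130) and 4.64% in N-LKO (40 of 863), a difference of -1.83 points (-3.82 to 0.242). After thinning, Kupffer-like barcodes stood at 1.96% in WT and 1.70% in N-LKO, monocyte/macrophage-like at 2.08% and 2.34% and endothelial-like at 1.28% and 1.48%. Thinned T/NK-like shares were 4.51% (3.38 to 5.89) and 3.24% (2.17 to 4.66), and hepatic stellate-like shares 1.08% (0.539 to 1.92) and 0.405% (0.0836 to 1.18). The separate intervals of the libraries overlapped in all 5 lineages after thinning. Different clusters held most of the Kupffer-like cycling barcodes in the libraries, cluster 8 in WT (41) and cluster 9 in N-LKO (120), and likewise cluster 0 in WT (34) and cluster 1 in N-LKO (57) among the endothelial-like ones.

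Conventional DC-like barcodes, the cells that take up antigen and prime T cells, had the highest share of cycling in N-LKO. It was 19 of 298 in WT (6.38%, 3.88 to 9.78) and 78 of 593 in N-LKO (13.2%, 10.5 to 16.1), a difference of 6.78 points (2.59 to 10.5). The cycling DC-like barcodes had median depths of 2091 and 2154 UMIs, against 1472 and 1553 in the others of that lineage. After thinning, 3.69% of DC-like barcodes cycled in WT and 5.23% in N-LKO, a difference of 1.54 points, and the separate intervals (1.86 to 6.51 and 3.58 to 7.34) overlapped. B cell-like barcodes stood at 3 of 366 in WT (0.820%) and 22 of 824 in N-LKO (2.67%), a difference of 1.85 points (0.0472 to 3.29). Of plasmacytoid DC-like barcodes none of 265 cycled in WT, which allows a share of up to 1.13% by 3 counts, against 14 of 664 in N-LKO (2.11%). After thinning, B cell-like barcodes stood at 1 in WT (0.273%, 0.00692 to 1.51) and 10 in N-LKO (1.21%, 0.583 to 2.22), and plasmacytoid DC-like barcodes at 0 (interval up to 1.38%) and 6 (0.904%, 0.332 to 1.96), so that the intervals overlapped for both.

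A second reading asked which marker lists the cycling barcodes carried themselves, without the clustering. A list was called carried when the barcode held at least 3 UMIs of it and more than free RNA at the barcode's depth would give at a Poisson probability of 0.001. In WT the Kupffer list was carried by 80 cycling barcodes, the endothelial list by 68, the T cell list by 59 and the hepatic stellate list by 25. In N-LKO the Kupffer list was carried by 159, the monocyte/macrophage list by 112, the endothelial list by 73, the T cell list by 48 and the conventional DC list by 40. The monocyte/macrophage list was carried by 5.86% of WT and 17.7% of N-LKO cycling barcodes, and the T cell list by 20.3% and 7.58%. Carried shares were not computed for the barcodes that were not cycling. In those the monocyte/macrophage list stood at 160 CPM in WT and 631 in N-LKO, and the T cell list at 139 and 176. The hepatocyte list was carried by 2 WT and 25 N-LKO cycling barcodes, the cholangiocyte list by 3 and 18, and the B cell list by 3 and 21. No list was reached by 61 WT (21.0%) and 192 N-LKO (30.3%) cycling barcodes. Lists of 2 or more unrelated families were carried by 50 (17.2%) and 97 (15.3%).

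**Figure D3:**
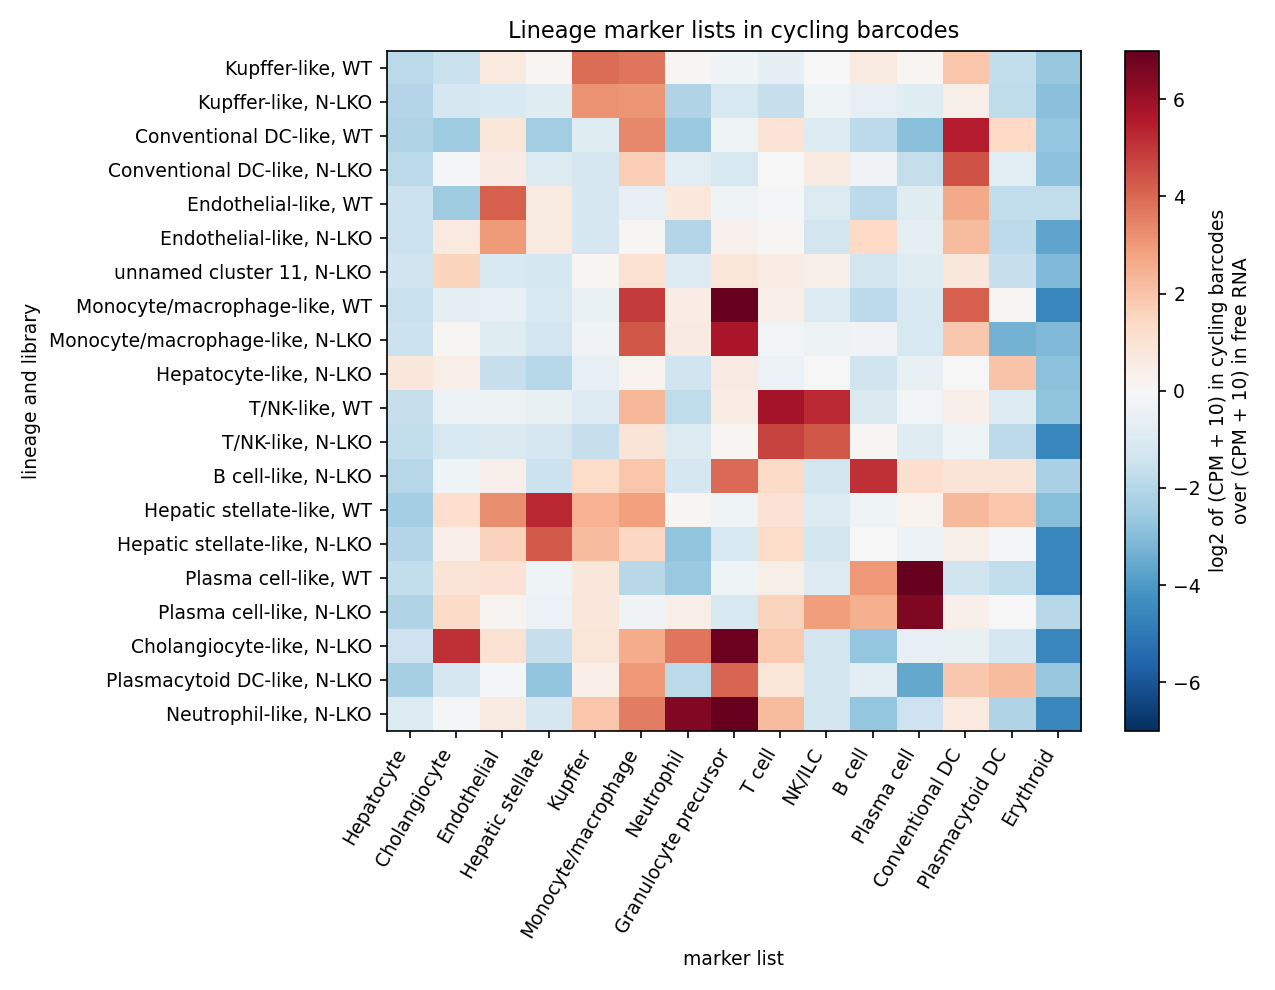
Each cell is the log2 ratio of a marker list's summed CPM plus 10 in the cycling barcodes of a lineage to the same in free RNA of that library, for lineages with at least 10 cycling barcodes. Named lineages stand above free RNA in their own list, hepatocyte-like barcodes only slightly, and the granulocyte precursor list stands highest in neutrophil-like barcodes, followed in N-LKO by cholangiocyte-like ones, through 1 barcode, and by monocyte/macrophage-like ones.

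T/NK-like cycling barcodes carried the T cell receptor complex. In the 73 WT barcodes Themis, a T cell receptor signaling protein, stood at 675 CPM, Trbc2, the receptor's beta chain constant segment, at 536, and the CD3 chains Cd3e, Cd3g and Cd3d at 365, 303 and 287. In the 40 N-LKO barcodes the values were 767 for Themis, 428 for Trbc2, 206 for Cd3e, 192 for Cd3g and 310 for Cd3d. The whole T cell list was at 2437 CPM in WT and 2197 in N-LKO, against 1670 and 1340 in the T/NK-like barcodes that were not cycling. Cd8a, the coreceptor of cytotoxic T cells, had 12 and 6 UMIs, and Cd4, that of helper cells, 4 and 4. The natural killer receptors Ncr1 and Klrb1c were low, with 5 and 6 UMIs in WT and 7 and 3 in N-LKO, while the granule protease Gzma stood at 388 CPM in WT (50 UMIs) and 88.5 in N-LKO (6 UMIs).

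The conventional DC-like cycling barcodes carried the markers of cross-presenting DCs. The dead-cell receptor Clec9a stood at 408 CPM in WT and 323 in N-LKO, the growth factor receptor Flt3 at 306 and 255, and the chemokine receptor Xcr1 at 204 and 238. Their levels in the DC-like barcodes that were not cycling were 342 and 256, 224 and 194, and 230 and 202. Cd209a and Clec10a, markers of the other conventional subset, had 0 UMIs in WT and 1 UMI each in N-LKO. Cluster 16, led by Xcr1, held 19 WT and 71 N-LKO cycling barcodes of this lineage. Within that cluster 8.96% of WT barcodes (5.48 to 13.6) and 16.1% of N-LKO barcodes (12.8 to 19.8) cycled. Cluster 20, led by Il12b and Ccr7 of mature migrating DCs, held 4 cycling barcodes, all from N-LKO.

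Kupffer cells are the resident macrophages of the liver sinusoid. Their cycling barcodes carried the resident markers Cd5l, at 2793 CPM in WT and 2123 in N-LKO, the complement genes C1qa (1238 and 1397) and C1qb (1184 and 1708), and the lectin Clec4f (994 and 598). Timd4, a receptor of long-resident Kupffer cells, stood at 72.3 CPM in WT (8 UMIs) and 31.1 in N-LKO (9 UMIs), against 179 and 36.2 in the Kupffer-like barcodes that were not cycling. Marco, a scavenger receptor, stood at 117 and 6.91 CPM, against 106 and 10.9 there. Gpnmb and Trem2 of lipid-associated macrophages stood at 481 and 353 CPM in the N-LKO cycling barcodes and 181 and 90.4 in those of WT, against 647 and 288, and 233 and 113, in the others. Both markers were thus lower in WT than in N-LKO in cycling as in other Kupffer-like barcodes. Marco was higher in WT, but its level in the N-LKO cycling barcodes rested on few UMIs and was not tested. There 1 UMI corresponds to 3.46 CPM. Timd4 was higher in WT too, but in the cycling barcodes this rested on 8 and 9 UMIs and was not tested.

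Monocyte/macrophage-like cycling barcodes of N-LKO stood high in genes of inflammatory monocytes. Ly6c2, the surface antigen of those cells, stood at 923 CPM against 154 in the barcodes of that lineage that were not cycling, F13a1, a coagulation factor subunit, at 1298 against 464, and Chil3, a chitinase-like protein, at 429 against 136. In WT Ly6c2 was at 437 CPM against 187 (17 UMIs), F13a1 at 180 against 193 and Chil3 had no UMI in the 23 barcodes. Gpnmb and Trem2, genes of lipid-associated macrophages, had 2 and 3 UMIs in N-LKO and 0 and 1 in WT.

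A small group of cycling barcodes carried genes of granulocyte precursors, the marrow cells that make the granule proteins of neutrophils. The list (Mpo, Elane, Prtn3, Ctsg, Ltf, Camp and Ngp) summed to 505 CPM in WT and 472 in N-LKO cycling barcodes, against 9.06 and 40.2 in the others and 2.33 and 12.1 in free RNA. At least 5 UMIs of it were found in 5 WT (1.72%, 0.562 to 3.98) and 20 N-LKO (3.16%, 1.94 to 4.84) cycling barcodes, against 10 (0.0503%) and 51 (0.236%) of the others. In N-LKO 7 of the 20 were monocyte/macrophage-like, 5 neutrophil-like and 3 without a lineage, and in WT 2 of the 5 were monocyte/macrophage-like and 2 neutrophil-like. Elane, the neutrophil elastase, had 69 UMIs in 2 of the 23 WT monocyte/macrophage-like cycling barcodes, and none of the genes for the later granule proteins Ltf, Camp and Ngp had a UMI there in either library. The neutrophil-like cycling barcodes carried those later genes, with Camp at 2489 CPM and Ngp at 2800 in the 13 of N-LKO against 251 and 407 in the other neutrophil-like barcodes. Cxcr2 and Retnlg, which mark mature neutrophils, stood at 104 and 173 CPM there, against 159 and 449. A lone cholangiocyte-like N-LKO cycling barcode held 14 Ltf, 51 Camp and 35 Ngp UMIs.

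Endothelial-like cycling barcodes carried the sinusoidal scavenger receptor Stab2 at 1819 CPM in WT and 1255 in N-LKO, against 1462 and 1126 in the others of the lineage. Kdr, the receptor for vascular endothelial growth factor, stood at 706 and 473 against 756 and 393. Ptprb, an endothelial phosphatase, was at 1114 and 937 against 2278 and 1410, and the lectin Clec4g at 298 and 301 against 579 and 329. Hepatic stellate-like cycling barcodes carried Dcn, a matrix proteoglycan, at 3030 and 1763 CPM, and Reln, a secreted glycoprotein of these cells, at 1251 and 678, against 3731 and 1992, and 1703 and 950, in the others. Of these stellate-like cycling barcodes 27.3% in WT and 43.8% in N-LKO had a doublet score of 0.25 or more, and in WT the endothelial and Kupffer lists stood at 2737 and 2522 CPM in them, against 274 and 465 in free RNA.

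Plasma cell-like barcodes cycled at 10 of 113 in WT (8.85%, 4.33 to 15.7) and 16 of 294 in N-LKO (5.44%, 3.14 to 8.69), and after thinning at 4.42% and 3.40%. Jchain, the joining chain of secreted antibodies, stood at 7769 and 9459 CPM in them, against 17706 and 19055 in the other plasma cell-like barcodes, while Mzb1, a chaperone of antibody assembly, stood at 1096 and 1322 against 1123 and 997. The 22 B cell-like cycling barcodes of N-LKO carried Ebf1 and Pax5, transcription factors of the B lineage, at 1087 and 322 CPM against 960 and 212. The 14 plasmacytoid DC-like cycling barcodes of N-LKO carried Siglech, their surface lectin, at 398 CPM against 1080, and Ccr9, a gut-homing receptor, at 85.2 against 392. The 14 cholangiocyte-like ones carried Pkhd1, the cilium protein fibrocystin, at 1413 CPM against 1897, and Epcam at 341 against 361. Clusters 14, 15 and 18, whose scores joined 2 or more unrelated types, held 4, 5 and 18 cycling barcodes in WT and 18, 11 and 43 in N-LKO. In cluster 18 the Kupffer list stood at 7287 and 4953 CPM and the endothelial list at 3460 and 2735 in the same barcodes.

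Cycling was rare among hepatocyte-like barcodes in WT. These barcodes fell in different clusters in the libraries, cluster 23 holding most of those of N-LKO, so cycling is given by cluster. The 10 leading genes of cluster 23 included Ly6d of the plasmacytoid DC list. They held no gene of the hepatocyte list, and neither did those of the other hepatocyte-like clusters. In cluster 23 the hepatocyte list had 9 raised markers and a score of 0.53. In the clusters other than 23, which were nearly all WT, 6 of 10235 WT barcodes (0.0586%, 0.0215 to 0.128) and 1 of 71 N-LKO barcodes cycled. In cluster 23, 42 of 2125 N-LKO barcodes (1.98%, 1.43 to 2.66) and 1 of 95 WT barcodes (1.05%, 0.0266 to 5.73) cycled. After thinning 10 barcodes (0.471%) remained in N-LKO and none in WT. Of the leading genes of cluster 23, Saa1 and Saa2 encode serum amyloid A proteins and Orm1 an orosomucoid, which are acute phase proteins that hepatocytes secrete.

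The 40 hepatocyte-like cycling barcodes of N-LKO, of which 38 came from cluster 23, held the secreted plasma proteins of hepatocytes above free RNA. Albumin (Alb) stood at 16338 CPM (15652 to 17046), against 15991 in the hepatocyte-like barcodes that were not cycling and 8727 in free RNA. Transthyretin (Ttr) stood at 7082 against 7723 and 3348, and Cps1, the entry enzyme of the urea cycle, at 980 against 1816 and 932. Alb, Ttr and Apoa1 had UMIs in all 40, whose median depth was 3027 UMIs against 1921 in the others. Detection alone does not mark hepatocytes here. Alb also had UMIs in all 57 N-LKO cycling barcodes of the unnamed cluster, where it lay below free RNA. Ptprc, the leukocyte antigen CD45, was at 68.9 CPM against 74.4 and a free RNA level of 142. Clec4f was at 84.2 (11 UMIs in 6 barcodes) against 33.6, a ratio of 2.51 (1.23 to 4.61). Its level in the cycling barcodes did not exceed the free RNA level of 87.1. Ly6d stood at 735 CPM against 424, and Siglech had no UMI. The 7 WT hepatocyte-like cycling barcodes are too few for a comparison of genes.

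Genes linked to liver tumors differed widely among themselves in these barcodes. Spp1, the secreted protein osteopontin, stood at 1034 CPM (867 to 1223; 135 UMIs in 18 barcodes) against 496 in the hepatocyte-like N-LKO barcodes that were not cycling, a ratio of 2.08 (1.74 to 2.48), and 158 in free RNA. Lcn2, an iron-sequestering secreted protein, was at 444 CPM against 449, and the keratins Krt8 and Krt18 at 612 and 176 against 611 and 266. Afp and Gpc3, fetal liver genes that many hepatocellular tumors switch on, had no UMI, nor did Epcam and Cd24a, and the 3 counts that a count of 0 allows correspond to 22.97 CPM. Sox4 had 1 UMI and Igf2bp3 had 2. Nus1 had 8 UMIs (61.2 CPM, 26.4 to 121) against 39.1 CPM in the other hepatocyte-like N-LKO barcodes and 37.4 in free RNA, and reads from the 3′ end may lie outside the deleted part, so its level is no check of the deletion.

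The unnamed cluster 11 was nearly confined to N-LKO, with 2991 barcodes there and 19 in WT. Its leading genes included Tmem45b, Eda, Sybu, Grip1 and Col4a3. The best-scoring list, that of hepatocytes, had a score of 0.138 with 2 raised markers, both below the minimum for a name. The next, that of cholangiocytes, scored 0.023. The 57 N-LKO cycling barcodes assigned to cluster 11 (1.91% of the assigned barcodes) had a median depth of 2746 UMIs. Some hepatocyte genes stood above free RNA in them and others below. Alb stood at 2404 CPM against 8727 in free RNA and Ttr at 1023 against 3348, while Hnf4a, the transcription factor of hepatocyte identity, stood at 240 against 87.6 and Cps1 at 1550 against 932. Ptprc was at 281 CPM against 142. Malat1, a nuclear noncoding RNA, stood at 17702 CPM, against 5593 in free RNA and 4234 in the hepatocyte-like cycling barcodes. Igf2bp3 was at 46.8 CPM (8 UMIs in 6 barcodes) against 15.6 in the barcodes of the cluster that were not cycling. Of the mast cell and basophil list, Mcpt8 (18 UMIs) and Cpa3 (8 UMIs) came from 1 barcode.

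Beside the 6 selection genes, 131 genes of 11 cell cycle lists were followed in all cycling barcodes. Each list was higher in cycling than in other barcodes of both libraries, which the choice of barcodes by mitosis genes largely fixes. Chromatin and histone supply was the most abundant, at 3637 CPM in WT and 2621 in N-LKO against 378 and 447, through Hmgb2 (1585 and 893), a chromatin-bending protein, and the histone variant H2afz (1239 and 1128). Ezh2, the methyltransferase of histone H3 lysine 27, stood at 270 and 220. Replication genes summed to 1381 and 988 CPM, led by the polymerase subunit Pola1 (240 and 182), the sliding clamp Pcna (206 and 142) and the ligase Lig1 (129 and 73.8). Nucleotide supply summed to 586 and 435, with the ribonucleotide reductase subunits Rrm1 (145 and 103) and Rrm2 (109 and 79.8) and the dUTPase Dut (111 and 79.8). DNA repair genes summed to 415 and 349, led by the helicases Brip1 (107 and 83.2) and Blm (57.3 and 52.3) and by Brca1 (51.9 and 40.3).

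Spindle and motor proteins summed to 1993 CPM in WT and 1755 in N-LKO against 38.3 and 66.7, led by Nusap1 (329 and 238) and Tpx2 (210 and 198), which build spindle microtubules, and the midzone motor Kif23 (201 and 136). Centromere and kinetochore genes summed to 1742 and 1447, with survivin (Birc5) at 247 and 197, the scaffold Knl1 at 197 and 196 and Cenpp at 175 and 154. Condensin and cohesion genes summed to 1175 and 933, through Smc4 (369 and 324) and Smc2 (267 and 209), the condensin core, and Ncapg2 (143 and 86.6). Cytokinesis genes summed to 1169 and 1071, with the formin Diaph3 (315 and 299), the midzone bundler Prc1 (292 and 221) and the RhoA activator Ect2 (122 and 148). Cyclins and their kinases summed to 965 and 807, led by the kinase subunits Cks2 (150 and 133) and Cks1b (150 and 121) and by cyclin A2, Ccna2 (118 and 102). Spindle checkpoint genes summed to 722 and 576, with Ube2c, a ubiquitin enzyme of mitotic exit, at 261 and 176, Bub1b at 104 and 82.5 and Bub3 at 93.1 and 88.6. The transcription factors of the cycle were sparse, at 236 and 232 in all, with E2f8 at 48.3 and 52.3, Lin9 at 37.6 and 36.9 and Tfdp1 at 32.2 and 34.9.

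Genes of the G1 entry and brake differed little between cycling and other barcodes by comparison. G1 cyclins and kinases summed to 677 CPM in WT and 753 in N-LKO against 331 and 641, with Cdk6 at 102 and 166 and the retinoblastoma gene Rb1 at 127 and 134. Inhibitors of the cycle and p53 targets summed to 408 and 453 against 224 and 366. Among them Cdkn2c, an inhibitor of Cdk4 and Cdk6, stood at 66.3 and 53.7 against 4.72 and 7.69, while Cdkn1a, the p53 target p21, stood at 50.1 and 90.6 against 24.8 and 86.5, and the antiproliferative gene Btg2 at 78.8 and 102 against 69.6 and 105. Genes induced by cell isolation summed to 913 and 809 against 745 and 937, with Fos at 141 and 155 against 82.0 and 133.

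The balance of S-phase and mitosis genes differed among lineages. S-phase lists (replication, nucleotide supply, chromatin and DNA repair) took 51.9% (50.6 to 53.1) of the UMIs of S-phase plus mitosis lists in WT cycling barcodes and 47.7% (46.8 to 48.5) in N-LKO. The chromatin list gave 2031 of the 3361 S-phase UMIs in WT and 3906 of 6548 in N-LKO, mostly through Hmgb2 and H2afz. Shares without these genes were not computed, so their part in the differences among lineages was not tested. Conventional DC-like barcodes were among the highest, at 61.5% (56.8 to 66.2) and 56.5% (54.1 to 58.9), with plasmacytoid DC-like barcodes at 59.1% (53.8 to 64.2) in N-LKO. Kupffer-like barcodes stood at 513 UMIs of each kind in WT and 48.6% in N-LKO, monocyte/macrophage-like at 54.0% and 52.7% and T/NK-like at 52.9% and 55.9%. Endothelial-like barcodes stood lower, at 42.1% (38.8 to 45.3) and 38.4% (35.5 to 41.4), as did the hepatocyte-like ones of N-LKO at 37.3% (34.3 to 40.4). Cluster 11 was the lowest at 24.96% (22.6 to 27.4). In its 57 cycling barcodes Diaph3 stood at 667 CPM and Ect2 at 404, while Pcna stood at 35.1 and Hmgb2 at 123. Among the selection genes themselves, Cenpf (433 CPM) and Mki67 (368) stood above Top2a (304) there, whereas Top2a led in all cycling barcodes together. UMIs of a barcode are not independent of each other, so the intervals are too narrow for a comparison of cells, and these shares are a description.

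**Figure D4:**
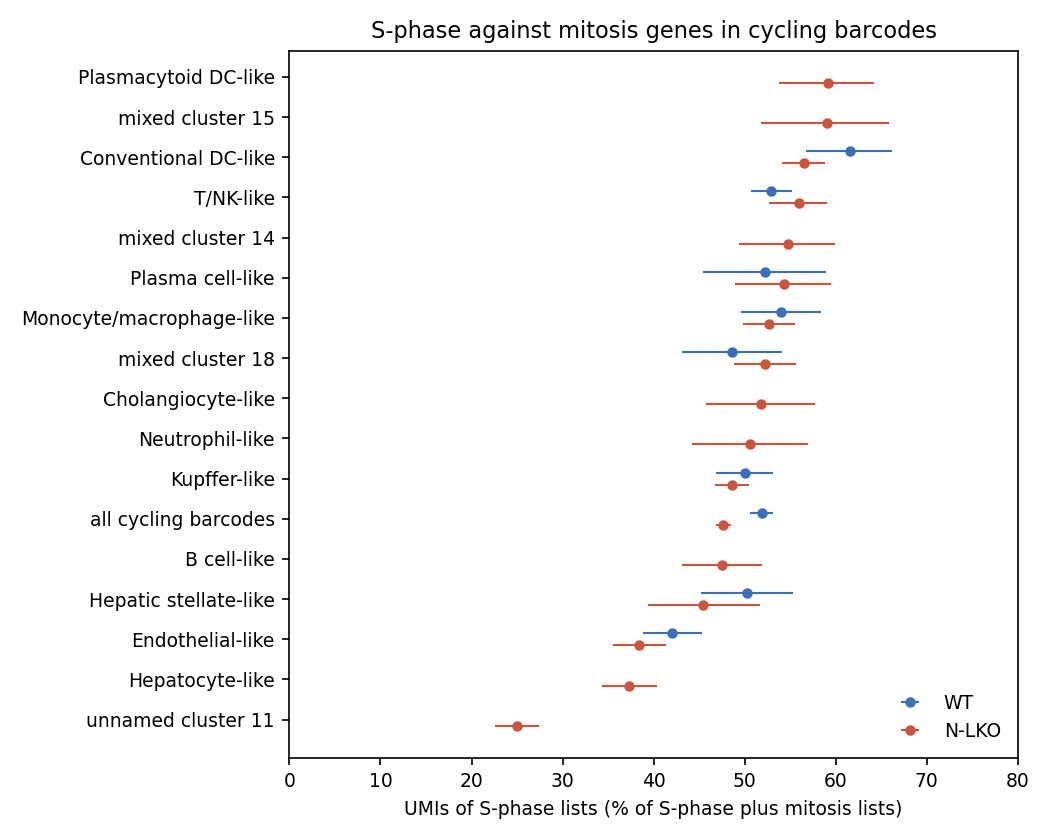
UMIs of the S-phase lists as a percentage of S-phase plus mitosis lists (x axis), summed over the cycling barcodes of each lineage with at least 10 of them, for WT and N-LKO with 95% exact intervals. Values run from 24.96% in cluster 11 to 61.5% in WT conventional DC-like barcodes.

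Kupffer-like was the lineage with at least 50 cycling barcodes in each library whose genes were compared between N-LKO and WT on summed counts. Over 3769 genes with at least 20 UMIs in the sums together, 6.92% were at least 2-fold higher in N-LKO and 6.95% at least 2-fold lower. Of the 131 cell cycle genes 73 reached that minimum, of which 3 were at least 2-fold higher and 2 at least 2-fold lower. Their median log2 ratio was 0.14, beside -0.04 for all genes described. The lists summed to 11843 CPM in N-LKO and 11216 in WT, a ratio of 1.06 (0.989 to 1.13). The 6 selection genes summed to 2565 and 2485 CPM, a ratio of 1.03 (0.897 to 1.19). Every barcode of both libraries was chosen for at least 3 UMIs of them, so this ratio is largely set by the rule. Single lists ran from a ratio of 0.937 (0.771 to 1.14) for replication to 1.25 (0.773 to 2.09) for the transcription factors, and each interval held 1. Inhibitors of the cycle and p53 targets stood at 515 CPM against 352, a ratio of 1.46 (1.02 to 2.14). Their 5 described members had a median log2 ratio of -0.19, opposite in sign to the sum, which Cdkn1a (33 UMIs against 3) and Cdkn1b (23 against 1) carried.

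The genes with the highest ratios included several that met the minimum of 20 UMIs through the deeper N-LKO sum alone (Spp1, Fabp4 and Sptan1), so their ratios are a description. The same holds for Fundc2, which had 1 UMI in WT. Spp1 had 79 UMIs in N-LKO (273 CPM) and none in WT, so it was at least 10.1-fold higher than the 27.1 CPM that 3 counts over the WT sum allow. Trem2, the lipid receptor of disease-associated macrophages, had 102 UMIs against 10, a ratio of 3.90 (2.04 to 8.38), and the fatty acid-binding protein Fabp5 had 100 against 10, a ratio of 3.82 (1.996 to 8.22). Fabp4 had 28 UMIs and none in WT, 3.57 times the WT limit (lower bound of the ratio 2.72). Sptan1, a spectrin chain, had 22 and none, 2.80 times that limit (lower bound 2.10). Fundc2 had 38 UMIs against 1, a ratio of 14.5 (2.46 to 589). The monocyte/macrophage list stood at 1369 CPM against 497, a ratio of 2.75 (2.07 to 3.72). All 5 of its genes that reached the minimum were at least 2-fold higher, beside 6.92% of all genes described. Genes higher in N-LKO reach the minimum more easily, because that sum is deeper. In the Kupffer-like barcodes that were not cycling, Spp1 had a ratio of 5.32, Fabp4 4.27, Trem2 2.55 and Fabp5 2.43, whereas Sptan1 and Fundc2 stood at 1.21 and 1.29. Free RNA held Spp1 at 158 CPM in N-LKO and 18.0 in WT, Fabp4 at 128 and 40.5, Sptan1 at 48.2 and 24.1, Trem2 at 22.96 and 4.78, Fabp5 at 57.1 and 30.01, and Fundc2 at 13.6 and 17.3. Fabp4 in the N-LKO cycling barcodes, at 96.8 CPM, lay below its free RNA level, and the part of free RNA in these ratios was not tested.

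The genes lowest in N-LKO relative to WT were hepatocyte genes. Fabp1, the liver fatty acid-binding protein, had 195 UMIs (674 CPM) against 538 (4862 CPM) and Car3, a carbonic anhydrase, 24 against 100. Sult2a8, a sulfotransferase, had 4 against 21, the epoxide hydrolase Ephx2 4 against 20, the malic enzyme Me1 4 against 19, and the urea cycle enzyme Ass1 15 against 39. Free RNA held these genes at higher levels in WT too, with Fabp1 at 19704 CPM against 3248 in N-LKO and Car3 at 2898 against 393. Their part in the difference was not tested.

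**Figure D5:**
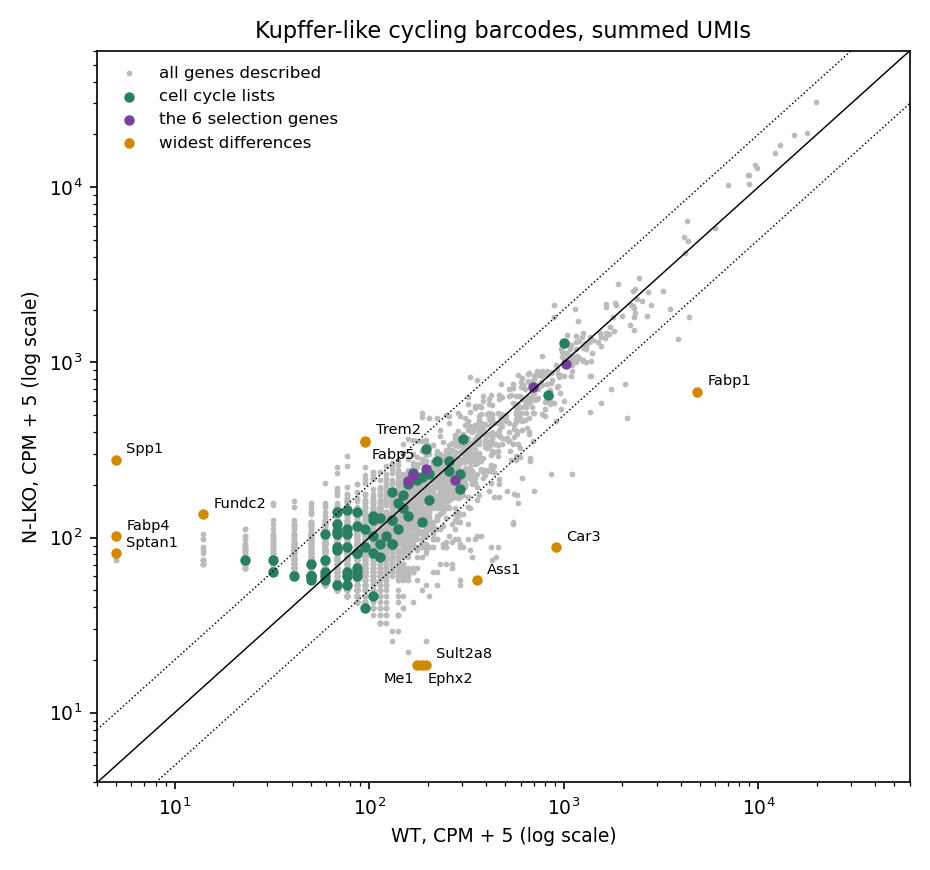
CPM plus 5 in the summed UMIs of Kupffer-like cycling barcodes, WT on the x axis and N-LKO on the y axis, both log scales, for the 3769 genes described, with equality (solid line) and 2-fold differences (dotted lines). Most of the 73 cell cycle genes lie between the dotted lines, as do the selection genes, by which the barcodes of both libraries were chosen. The 12 named genes, from Spp1 to Ass1, lie outside them.

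Within each library, the cycling Kupffer-like barcodes were also set beside the other Kupffer-like barcodes, a contrast that the selection itself used in part. In WT, 14.5% of 9219 genes with at least 20 UMIs were at least 2-fold higher in cycling barcodes, among them 63 of 67 cell cycle genes that reached the minimum. In N-LKO, 11.5% of 11201 genes were, among them all 107 of the cell cycle genes that did. The highest outside the lists in WT were Lockd, a noncoding RNA beside Cdkn1b (127 CPM against 2.46), the linker histone Hist1h1b (434 against 18.1), the microtubule regulator Stmn1 (606 against 29.1) and the clamp-binding protein Pclaf (407 against 18.1). Others described there were Hist1h2ae, Sgo1, Lmnb1, Cip2a and Tubb5, with ratios from 7.27 for the tubulin Tubb5 to 30.02 for the histone Hist1h2ae. In N-LKO they were Hist1h1b (446 against 11.4), Pclaf (342 against 10.3), Depdc1a, Efcab11, Cdca2, Neil3, Hist1h3c, Prr11, Hist1h2ae and Sgo2a, with ratios from 33.2 for Pclaf to 59.5 for Depdc1a. Sgo1 and Sgo2a, the shugoshins that guard cohesion, belong to the condensin and cohesion list but were written there under older symbols and so were counted outside it. The Kupffer list itself had a median log2 ratio of -0.30 in WT and -0.24 in N-LKO, beside 0.15 for all genes described in each library.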

How the data were processed

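Single-cell 3′ libraries of 2 groups, WT and N-LKO, with 1 library each, were analysed. The authors deposited unfiltered UMI counts per gene and barcode, made with Cell Ranger 7.1.0 per the file headers. The submitters' processing notes name Seurat and the build mm9, and no coordinate was taken from the counts. The files held 100171 barcodes with 85522287 UMIs for WT and 90147 with 87575064 UMIs for N-LKO, over 32285 genes. The filter left 20158 barcodes (median 1411.5 UMIs) and 22214 (1467), more than the study plotted, so rebuilt names and shares may differ from the study's.

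Barcodes of both libraries were clustered with scanpy 1.11.5 (2000 variable genes, 30 principal components, 20 neighbors, resolution 1). The 6 selection genes and cell cycle lists (137 genes) and 221 further genes that were higher in cycling barcodes across clusters were left out. Clusters were named from 16 marker lists by a score of at least 0.2 with at least 3 markers raised 2-fold, were called mixed where an unrelated list reached 0.6 of the score, and stayed unnamed below that score or where at least 2 leading genes, and more than their own, belonged to an unrelated list. A cycling barcode took the lineage of at least 50% of its 20 nearest other barcodes. Doublets were scored with Scrublet and kept, and were left out at 0.25 as an alternative.

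UMIs were summed over barcodes and given as CPM. Ratios had 0.5 UMI added for fold counts, needed 20 UMIs over both sums, and counted as past the fold at 2-fold. Intervals (95%) were Clopper-Pearson for shares, exact Poisson for sums, Newcombe for differences and conditional binomial for ratios, in Python 3.11.15 with numpy 2.4.6 and scipy 1.17.1. The comparison code was tested on simulated data. With 1 library per group no p-value across genes or samples was computed. Genes named were the selection genes, the 3 genes with most UMIs in each list, the 6 with the highest lower and 6 with the lowest upper ratio bound between libraries, the 10 with the highest lower bound between cycling and other barcodes, and the lineage markers. A gene among the last 10 is not reported here. Other genes were picked after their values were seen, among them Malat1, Clec4f and Ptprc in hepatocyte-like and cluster 11 barcodes and Diaph3, Ect2, Pcna and Hmgb2 in cluster 11. The members, lists and rules were chosen with earlier results of these data known. Promoters came from RefSeq for GRCm38.p6.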

Additional observations from a re-analysis of the deposited data

Results flagged for a closer look

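Barcodes of 500 to 999 UMIs lay below the depth used in the comparisons, and some of them also held 3 or more UMIs of the selection genes. They were 35 of 18351 in N-LKO (0.191%, 0.133 to 0.265) and 20 of 47330 in WT (0.0423%, 0.0258 to 0.0653). They drew attention because a signal of cycling appeared outside the barcodes described, above its level in WT.

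Genes drew attention where the ratio of their CPM in cycling to other barcodes lay above 1 in WT and below 1 in N-LKO, with neither interval holding 1. Ccnd2, a D-type cyclin of G1, stood at 1.53 in WT and 0.735 in N-LKO, and Ccnd3, another, at 1.64 and 0.833. The immediate early genes Junb and Egr1, which respond to cell isolation as well as to growth signals, stood at 1.28 and 0.770, and at 1.39 and 0.723. The differences between the libraries were not tested, and the lineage make-up of the cycling and the other barcodes differed between them. Within T/NK-like, Kupffer-like, monocyte/macrophage-like and endothelial-like barcodes, Egr1 in Kupffer-like barcodes was the gene whose intervals lay on opposite sides of 1, at 1.83 (1.23 to 2.62) in WT and 0.565 (0.390 to 0.795) in N-LKO. Ccnd3 in T/NK-like barcodes stood at 0.473 and 0.310, below 1 in both.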

How the results depend on the processing

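Of the values recomputed for the comparisons, 82 stayed near the reported value, 28 moved, and the 61 recomputed values of named genes stayed. Shares and ratios were judged by the interval of the reported value, and counts of genes by a fixed fold of the reported count. The ratio of cycling shares, N-LKO over WT, was 1.54 with at most 10% mitochondrial UMIs, 1.55 after thinning to 1000 UMIs and 3.59 with barcodes from 500 UMIs. In the make-up of cycling barcodes, N-LKO minus WT was 6.19 points for Kupffer-like with 5 or more UMIs of the selection genes. With each barcode placed by its own markers it was -13.4 points for T/NK-like, 1.40 for conventional DC-like and 8.60 for monocyte/macrophage-like. The conventional DC-like difference within the lineage was 1.54 points after thinning. The cause was not tested. Differences whose reported interval held 0 changed sign within their error. The Kupffer-like make-up went from 0.0921 points to -4.53 with 2 UMIs of the selection genes and -2.28 by own markers, the Kupffer-like share from 0.247 to -0.265 after thinning, and the endothelial-like share from 0.433 to -0.185 with 5 UMIs.

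The counts of Kupffer-like genes past 2-fold followed the filters by construction. Between libraries, at least 50 UMIs left 59 genes higher and 78 lower in N-LKO, with 0 and 0 cell cycle genes, and at least 1 UMI gave 1433 and 2593, with 8 and 11. Thinned members gave 119 and 141, with 1 and 0, and 2 added UMIs gave 121 higher, with 1 cell cycle gene. Between cycling and other barcodes, 2 added UMIs gave 2729 genes higher in WT and 2333 in N-LKO, since the addition weighs more on the smaller sum, and at least 50 UMIs gave 586 and 684, with 23 and 55 cell cycle genes. The median log2 ratio of the cell cycle genes between libraries was -0.02 with 2 added UMIs and 0.14 as reported. Requiring 2 different selection genes was chosen after seeing the data and moved no value. No paired analysis was possible because each group had 1 library, and no replicate could be left out.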
